A study of Mus musculus with 23 samples.

Results

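The 4 adult globin genes Hba-a1, Hba-a2, Hbb-bs and Hbb-bt and the erythroid heme synthesis gene Alas2 were described in mouse melanomas as a readout of the blood in each tumor. The genes were chosen by symbol, and they are 5 of the 56748 genes counted. RNA was sequenced from 23 tumors in 8 groups. All tumors grew from B16-F1 cells, a melanoma line of C57BL/6 origin, placed under the skin of the right flank of DBA/2J mice aged 6 to 8 weeks. Treatment began once a tumor could be felt, and it was given into the peritoneal cavity (IP, 8 tumors) or into the tumor itself (IT, 15 tumors). The IP groups held 2 tumors each and received saline (CONTROL_IP), pentoxifylline at 60 mg/kg (PTX_IP), norcantharidin at 3 mg/kg (NCTD_IP) or both drugs at these doses (MIX_IP). The IT groups received DMSO (CONTROL_IT, 4 tumors), pentoxifylline at 60 mg/kg (PTX_IT, 3 tumors), norcantharidin at 3 mg/kg (NCTD_IT, 4 tumors) or both (MIX_IT, 4 tumors). Pentoxifylline is a phosphodiesterase inhibitor that lowers blood viscosity, and norcantharidin is a demethylated relative of cantharidin that inhibits serine/threonine phosphatases. The host is of another strain than the tumor line, and each control received only the vehicle of its route. Route, vehicle and any batch that follows the route therefore cannot be told apart.

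Hemoglobin carries oxygen in red blood cells as a tetramer of alpha and beta chains around heme. In adult mice Hba-a1 and Hba-a2 encode the alpha chain from a cluster on chromosome 11, and Hbb-bs and Hbb-bt encode the beta chain from a cluster on chromosome 7. Alas2, on the X chromosome, encodes the enzyme of the first step of heme synthesis in red cell precursors, whereas Alas1 performs that step in other tissues. Precursors in the marrow transcribe all of these genes. Circulating reticulocytes have lost the nucleus but keep globin mRNA, which outlasts most other transcripts of the cell. A solid tumor sampled with its vessels therefore carries globin mRNA from the blood it holds. The beta locus also differs by mouse strain: the C57BL/6J reference carries Hbb-bs and Hbb-bt, and DBA/2J mice carry the diffuse haplotype with Hbb-b1 and Hbb-b2 in their place. Any beta globin reads from the blood of the hosts would thus be assigned to the copies of another strain. Whether the globin reads came from host blood or from the tumor cells was not tested.

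In GRCm39 Hba-a1 (ENSMUSG00000069919) lies at chr11:32233511-32234465 and Hba-a2 (ENSMUSG00000069917) at chr11:32246489-32247298, both on the plus strand. Hbb-bs (ENSMUSG00000052305) lies at chr7:103475741-103477303 and Hbb-bt (ENSMUSG00000073940) at chr7:103461731-103463203, both on the minus strand, and Alas2 (ENSMUSG00000025270) at chrX:149330371-149353634 on the plus strand. The copies within a cluster are close to identical, which bears on how far their counts can be separated. The coding part of the third exon is shown for each gene from the GRCm39 reference, 5′ to 3′ on the coding strand with the stop codon, and the capital letter marks the base at which the copies differ. These stretches lie at chr11:32234263-32234391 (plus strand), chr11:32247080-32247208 (plus strand), chr7:103475872-103476000 (minus strand) and chr7:103461863-103461991 (minus strand), in the order given.
Hba-a1: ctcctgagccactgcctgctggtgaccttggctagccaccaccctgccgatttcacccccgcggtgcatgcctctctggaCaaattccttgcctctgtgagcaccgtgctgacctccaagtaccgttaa
Hba-a2: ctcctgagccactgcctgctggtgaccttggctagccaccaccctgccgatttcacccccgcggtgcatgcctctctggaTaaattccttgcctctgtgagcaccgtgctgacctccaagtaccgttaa
Hbb-bs: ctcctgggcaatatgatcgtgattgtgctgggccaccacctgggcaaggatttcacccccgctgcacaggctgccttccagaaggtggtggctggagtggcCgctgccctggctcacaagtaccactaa
Hbb-bt: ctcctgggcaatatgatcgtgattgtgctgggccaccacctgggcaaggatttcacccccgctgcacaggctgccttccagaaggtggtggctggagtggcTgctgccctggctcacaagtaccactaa
Over the whole coding sequence, Hba-a1 and Hba-a2 differed at 1 of 429 bases (C381T, counted from the A of the start codon, Hba-a1 base first). Hbb-bs and Hbb-bt differed at 1 of 444 bases (C417T, Hbb-bs base first). The libraries were primed at the 3′ ends of the transcripts, where the clusters differ: the 3′ untranslated regions of the 2 alpha genes had 0 differences over the 90 bases that both annotated transcripts cover, whereas those of the 2 beta genes aligned with 70.4% identity. The split between Hba-a1 and Hba-a2 is therefore uncertain, since reads can fit both copies. For the reference copies, the split between Hbb-bs and Hbb-bt rests mainly on the last part of the transcript. The host copies Hbb-b1 and Hbb-b2 were not compared with them, so how host reads split is not known. How reads that fit several places were counted is not given in the sources used here.

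The promoters are shown because the levels of the globin genes varied together from tumor to tumor. Each line gives the 110 bases before the transcription start in RefSeq (from its GRCm38.p6 table, all 5 genes matched), with matches to 4 short promoter motifs on either strand in capitals. These are the letters CACCC, bound by Krüppel-like factors, then CCAAT, bound by factors such as NF-Y, the TATAA of the core promoter, and the AGATAA recognised by GATA factors. No matches overlapped one another. The windows were found in GRCm39 at chr11:32233562-32233671 (plus strand), chr11:32246382-32246491 (plus strand), chr7:103477136-103477245 (minus strand), chr7:103463131-103463240 (minus strand) and chrX:149330303-149330412 (plus strand). Each alpha window matched 2 places, and the place at its own gene is given. The Hba-a1 and Hbb-bs windows lie within the gene spans given above, and the others overlap theirs, so the RefSeq starts differ from those spans.
Hba-a1: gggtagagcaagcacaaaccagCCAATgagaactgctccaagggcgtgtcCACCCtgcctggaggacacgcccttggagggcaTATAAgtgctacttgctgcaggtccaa
Hba-a2: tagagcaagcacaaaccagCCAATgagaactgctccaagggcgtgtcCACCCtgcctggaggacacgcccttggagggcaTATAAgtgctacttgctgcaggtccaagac
Hbb-bs: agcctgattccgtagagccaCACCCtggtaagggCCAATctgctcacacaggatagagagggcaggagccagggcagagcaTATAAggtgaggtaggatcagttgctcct
Hbb-bt: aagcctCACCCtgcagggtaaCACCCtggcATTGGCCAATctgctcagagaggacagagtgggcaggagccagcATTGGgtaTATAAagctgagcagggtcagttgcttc
Alas2: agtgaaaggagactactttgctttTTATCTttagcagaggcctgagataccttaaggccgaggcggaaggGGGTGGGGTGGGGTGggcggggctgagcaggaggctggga
The 4 globin windows each held the first 3 motifs. The CCAAT box lay farthest from the start in the alpha genes, and the CACCC box lay farthest in both beta genes. The 2 alpha windows were the same sequence offset by 3 bases, with 107 of 107 shared bases identical. The Alas2 window held AGATAA on the complement strand and 3 CACCC matches on the complement strand, and no CCAAT or TATAA. Of the 32851 promoter windows in the RefSeq table, 29.6% held CACCC, 20.2% held CCAAT, 10.9% held TATAA and 3.99% held AGATAA.

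The libraries held 2861578 to 6702374 counts (median 4013068), and a floor of 3 counts corresponded to 0.448 to 1.03 CPM, the count scaled to the size of the library. The tumors carried melanocytic transcripts throughout, with the melanin synthesis enzyme Dct at a mean of 13180 CPM and the melanosome protein Pmel at 6132 CPM. The summed level of the 10 melanocytic markers ranged from 17450 to 41330 CPM. Xist, the RNA of the inactive X chromosome of female cells, was at or above 1 CPM in 1 of 2 CONTROL_IP tumors, in 3 of 3 PTX_IT tumors and in 4 of 4 NCTD_IT tumors, and in no tumor of the other 5 groups, although the design describes the groups as matched by sex. Host sex as read from Xist therefore cannot be told apart from the treatment in NCTD_IT or PTX_IT against CONTROL_IT.

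The 4 globin genes were detected in all 23 tumors, and Alas2 was close to absent. Hbb-bs was the most abundant member, with a mean of 958 CPM, and ranked 152 of 56748 genes by CPM and 77 per kilobase of transcript. Hba-a1 followed with a mean of 274 CPM, Hba-a2 with 166 CPM and Hbb-bt with 135 CPM. Per kilobase the means were 1247 CPM for Hbb-bs, 337 CPM for Hba-a1, 249 CPM for Hba-a2 and 192 CPM for Hbb-bt. Alas2 had 1 count in CONTROL_IP 1 and 2 counts in NCTD_IT 19, and 0 counts in the other 21 tumors, so that its level lay at or under the floor in every group and no fold change is given for it. Alas2 passed the filter on low counts in neither route and was not tested.

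The genes that mark the red cell and its precursors ranged from near 0 to abundant in the same libraries. Slc4a1, the anion exchanger of the red cell membrane, had 1 count summed over the 23 tumors. Gata1, the master transcription factor of the lineage, had 4 counts. Klf1, a Krüppel-like factor that binds CACCC boxes, had 89 counts, with a mean of 0.873 CPM. These sums compare with 28646 counts of Hba-a1, 17179 of Hba-a2, 95148 of Hbb-bs and 13836 of Hbb-bt. Of the 32 genes listed for the membrane and cytoplasm of the red cell, 6 stayed below the floor of 3 counts in every tumor, 2 of them at 0, whereas the list as a whole summed to 910 to 1722 CPM. Rhd, which encodes the RhD protein of the red cell membrane, had 901 counts, with a mean of 9.02 CPM and a range of 2.56 to 20.2 CPM. In bulk tumor RNA, fewer blood cells and less globin RNA per cell cannot be told apart.

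The embryonic genes of the same clusters were at or near 0 as well. Of the 13 globin genes outside the adult set, 11 were listed and 6 of these had 0 counts in every tumor, among them Hba-x, Hbb-y and Hbb-bh1, which are expressed in primitive red cells. The host alleles Hbb-b1 and Hbb-b2 were not matched in the count table. Cygb, the cytoglobin of fibroblasts and other tissues, was the sole gene of this list to pass the filter, with a mean of 4.19 CPM.

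Globin levels differed widely between tumors of the same group. In the CONTROL_IP tumors Hbb-bs was 1346 and 132 CPM. It was 223 and 282 CPM in PTX_IP, 1433 and 569 CPM in NCTD_IP, and 283 and 941 CPM in MIX_IP. Among the IP tumors the low value of CONTROL_IP was the lowest of all 23, and CONTROL_IP overlapped every treated IP group.

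In the CONTROL_IT tumors Hbb-bs was 4705, 861, 1197 and 2103 CPM. It was 178, 174 and 1640 CPM in PTX_IT and 149, 832, 620 and 230 CPM in NCTD_IT. In MIX_IT it was 473, 2669, 487 and 509 CPM. CONTROL_IT 9 was the highest of all 23 tumors, every NCTD_IT tumor lay below every CONTROL_IT tumor, and in PTX_IT and MIX_IT a single tumor (PTX_IT 16 and MIX_IT 22) overlapped the controls.

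**Figure D1:**
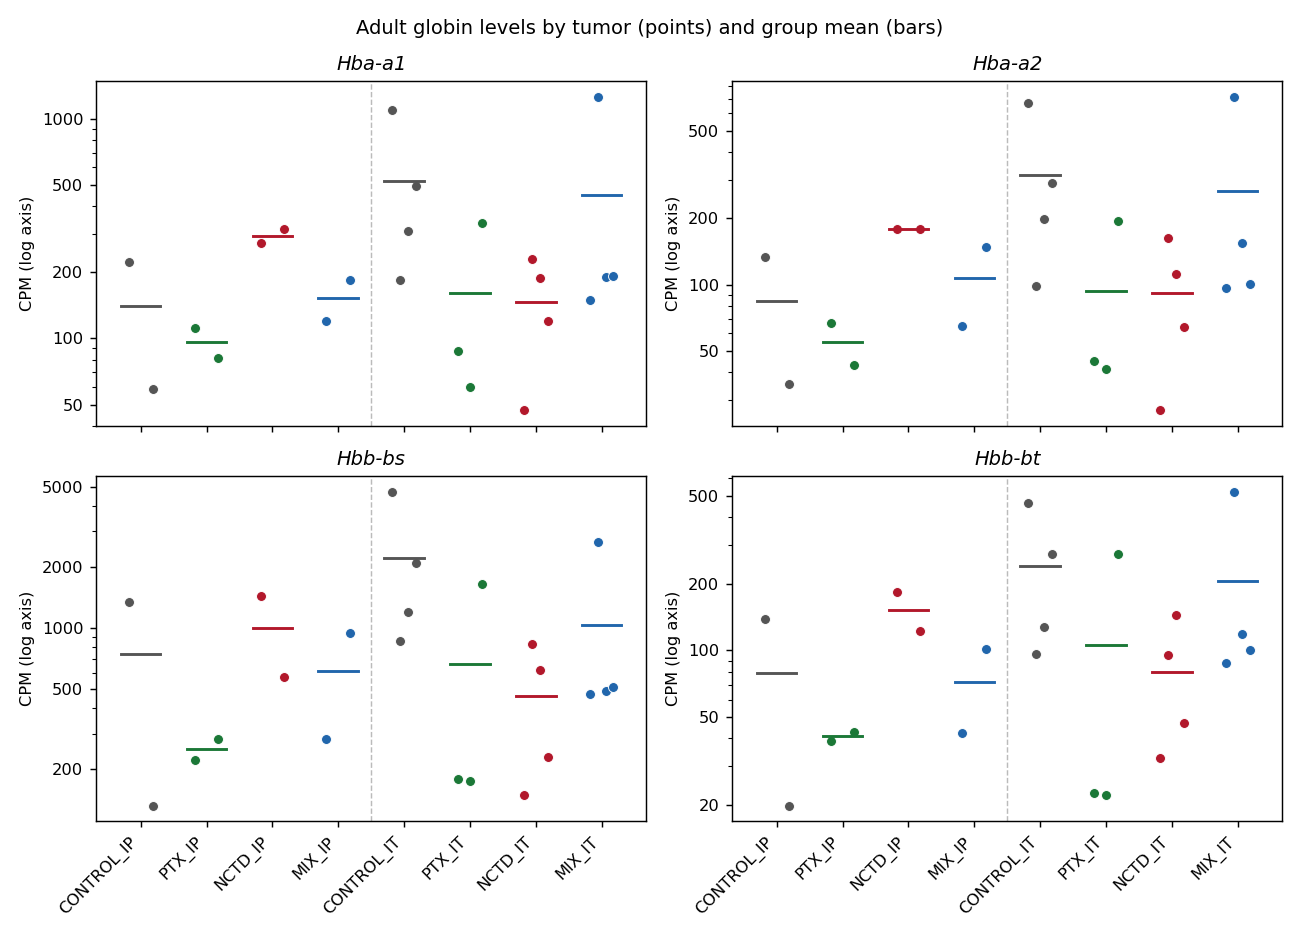
Level of the 4 adult globin genes in each tumor, in CPM on a log axis, with 1 panel per gene and 1 column per group. Points are tumors, horizontal bars are group means, and the dashed line separates the IP groups (2 tumors each) from the IT groups (3 or 4 tumors each). CONTROL_IT 9 and MIX_IT 22 are the highest points in all 4 panels.

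The alpha genes are described next, since they lie on another chromosome than the beta genes. In CONTROL_IT Hba-a1 was 1088, 185, 308 and 493 CPM, and in NCTD_IT it was 47.1, 229, 187 and 120 CPM. In PTX_IT it was 88.0, 59.9 and 336 CPM and in MIX_IT 150, 1257, 191 and 192 CPM. The IT groups overlapped one another for Hba-a1, and MIX_IT 22 was the highest of all tumors. In the IP groups Hba-a1 was 223 and 59.1 CPM in CONTROL_IP, 112 and 81.6 CPM in PTX_IP, 272 and 314 CPM in NCTD_IP, and 120 and 185 CPM in MIX_IP. Both NCTD_IP tumors were above both controls, and PTX_IP and MIX_IP lay within the range of the controls.

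Hba-a2 was 133 and 35.4 CPM in CONTROL_IP, 67.0 and 43.0 CPM in PTX_IP, 179 and 179 CPM in NCTD_IP, and 64.8 and 148 CPM in MIX_IP. By the IT route it was 668, 98.3, 199 and 290 CPM in CONTROL_IT, and 44.8, 41.5 and 194 CPM in PTX_IT. It was 26.8, 163, 112 and 64.2 CPM in NCTD_IT and 96.5, 714, 155 and 101 CPM in MIX_IT. As for Hba-a1, both NCTD_IP tumors lay above both controls and the IT groups overlapped.

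Hbb-bt, the minor beta copy, was 139 and 19.9 CPM in CONTROL_IP, 38.9 and 43.0 CPM in PTX_IP, 183 and 123 CPM in NCTD_IP, and 42.2 and 101 CPM in MIX_IP. By the IT route it was 462, 96.1, 127 and 273 CPM in CONTROL_IT, and 22.7, 22.2 and 273 CPM in PTX_IT. It was 32.5, 95.2, 145 and 47.1 CPM in NCTD_IT and 87.3, 520, 118 and 100 CPM in MIX_IT. For Hbb-bt each treated group overlapped its control.

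Ordered by mean level, CONTROL_IT stood first and PTX_IP last for each of the 4 genes. Hbb-bs averaged 2216 ± 1740 CPM (SD, n = 4) in CONTROL_IT, 1034 ± 1090 CPM (n = 4) in MIX_IT and 1001 ± 611 CPM (n = 2) in NCTD_IP. It then averaged 739 ± 859 CPM (n = 2) in CONTROL_IP, 664 ± 845 CPM (n = 3) in PTX_IT and 612 ± 465 CPM (n = 2) in MIX_IP. The lowest means were 458 ± 324 CPM (n = 4) in NCTD_IT and 253 ± 42.0 CPM (n = 2) in PTX_IP. Neighbours in this order overlapped for Hba-a1, Hbb-bs and Hbb-bt throughout, and for Hba-a2 at every step but that from NCTD_IP (179 CPM) to MIX_IP (107 CPM).

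The spread within groups was large for such abundant genes. The SD of log2 CPM around the 8 group means (15 residual degrees of freedom) was 1.34 for Hbb-bs, 1.25 for Hbb-bt, 1.13 for Hba-a2 and 1.10 for Hba-a1. The median over the 13395 genes fitted in all tumors was 0.44, and over the 1876 genes with a mean of at least 100 CPM it was 0.26. Of those 1876 genes, 20 had a larger SD than Hbb-bs, 23 than Hbb-bt, 35 than Hba-a2 and 40 than Hba-a1.

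The 4 globin genes moved together across tumors. Over all 23 tumors the Pearson correlation of log2 CPM was 0.99 between Hba-a1 and Hba-a2, 0.96 between Hbb-bs and Hbb-bt, and 0.94 between Hba-a1 and Hbb-bs. The 6 pairs ranged from 0.936 to 0.989, and Spearman's rho from 0.923 to 0.975 (two-sided permutation test, p = 1e-05 for each pair, the smallest that 100000 resamples can give, and 1e-05 after Benjamini-Hochberg adjustment over the 6 pairs). The relation was also found within routes. The lowest r was 0.947 over the 15 IT tumors, with an adjusted permutation p of 1e-05, and 0.861 over the 8 IP tumors, with an exact permutation p of 0.0103. Leaving out the 2 tumors farthest from the median of the first gene gave r of 0.924 or higher over all tumors and 0.837 or higher within routes. The points share library depth, and reads of one copy may be counted for another within a cluster, whereas the alpha and beta genes lie on different chromosomes and share no near-identical sequence (55.6% of aligned coding bases between Hba-a1 and Hbb-bs).

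**Figure D2:**
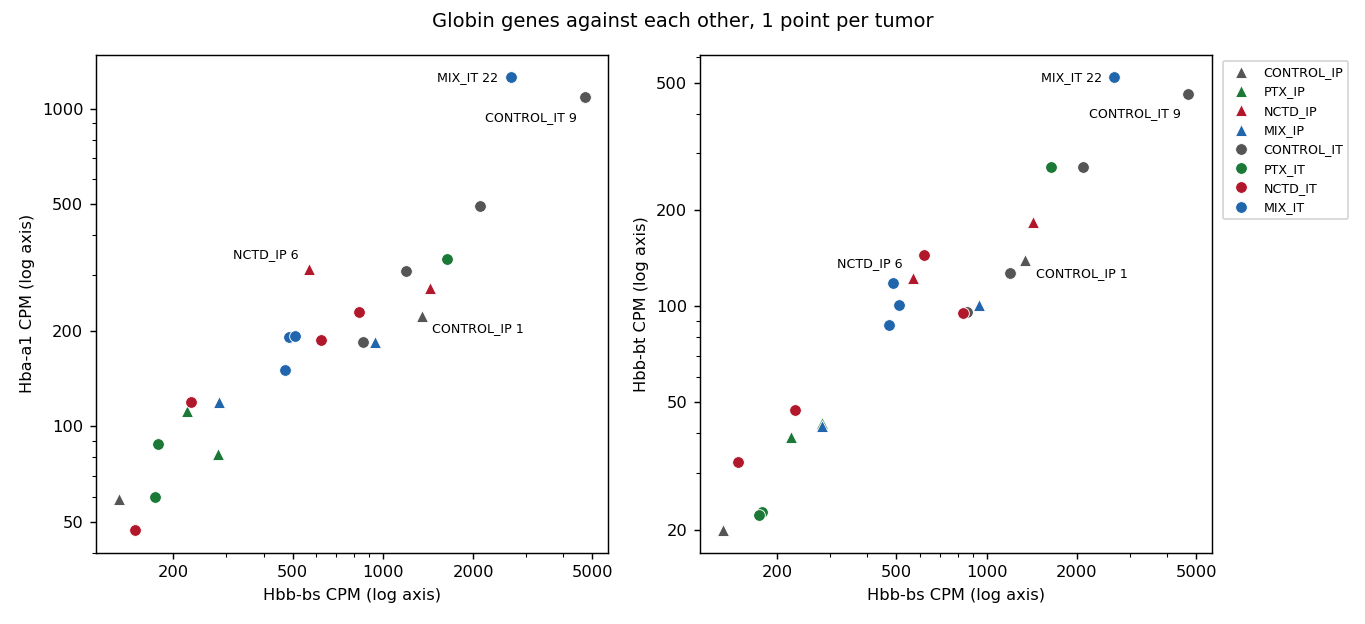
Hba-a1 (left) and Hbb-bt (right) against Hbb-bs, in CPM on log axes, with 1 point per tumor (triangles IP, circles IT, colors by treatment). The tumors fall along a line over the whole range of Hbb-bs, from 132 to 4705 CPM, and NCTD_IP 6 lies above the line for Hba-a1.

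Globin mRNA made up a small and variable part of each library. The 4 genes took 0.672% of the counts in CONTROL_IT 9 (95% Wilson interval 0.664 to 0.680%) and 0.503% in MIX_IT 22 (0.498 to 0.508%). The lowest share was 0.0252% in CONTROL_IP 2 (0.0240 to 0.0265%), and the median over the 23 tumors was 0.109%. These intervals cover counting error only.

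The ratio of the globin genes to one another was not constant. Hba-a1 and Hba-a2 together took 19.4% of the globin counts in CONTROL_IP 1 (Wilson interval 18.6 to 20.2%) and 41.6% in NCTD_IP 6 (40.3 to 43.0%), and these intervals do not overlap. The share was below 30% in 12 tumors, from 30 to 35% in 3 and at least 35% in 8. Tumors of 1 group could stand at both ends: NCTD_IP 5 had 21.8% and NCTD_IP 6 had 41.6%, and PTX_IT 13 had 39.8% and PTX_IT 16 had 21.7%.

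The shares were then compared between treated and control tumors of the IT route. The alpha share was 25.4, 22.8, 27.7 and 24.8% in CONTROL_IT, 29.0, 29.7, 28.1 and 39.9% in NCTD_IT, and 30.6, 38.2, 36.4 and 32.4% in MIX_IT. The alpha share in PTX_IT was 39.8, 34.1 and 21.7%. All NCTD_IT and MIX_IT tumors lay above all CONTROL_IT tumors, whereas PTX_IT spread to both sides of them. The mean difference from control was 6.53 percentage points in NCTD_IT and 9.23 in MIX_IT (exact two-sided permutation test, p = 0.0286 for each, the smallest that 4 against 4 tumors allow). After adjustment over 9 tests (3 shares in 3 IT comparisons) p was 0.0858 for both, so neither passed 0.05. All 9 tests have this same smallest p, and an adjusted p below 0.05 would need most of them to reach it. Without NCTD_IT 20 the difference of NCTD_IT was 3.79 points. For PTX_IT the difference was 6.71 points (exact p = 0.257, adjusted 0.386), and it was 11.8 points without PTX_IT 16 and 2.75 points without PTX_IT 13. These shares were tested after their values had been seen.

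Hbb-bt took 8.94, 10.0, 9.61 and 11.5% of the beta counts in CONTROL_IT and 15.6, 16.3, 19.6 and 16.5% in MIX_IT. It took 17.95, 10.3, 18.9 and 17.01% in NCTD_IT and 11.3, 11.3 and 14.3% in PTX_IT. All MIX_IT tumors lay above all CONTROL_IT tumors, and NCTD_IT 18 alone kept NCTD_IT within reach of the controls. The mean difference from control was 6.96 percentage points in MIX_IT (exact permutation p = 0.0286, adjusted 0.0858), 6.02 in NCTD_IT (exact p = 0.0571, adjusted 0.128) and 2.28 in PTX_IT (exact p = 0.114, adjusted 0.205). Without PTX_IT 16 the last difference was 1.30 points. How reads of the host copies Hbb-b1 and Hbb-b2 split between Hbb-bs and Hbb-bt was not tested.

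The share of Hba-a2 among alpha counts stayed within 33.8 to 44.8% over the 23 tumors, with a median of 37.4%. Its difference from control was 0.278 percentage points in NCTD_IT, -0.159 in PTX_IT and 1.37 in MIX_IT, with exact permutation p of 0.886, 0.943 and 0.714. For the IP route 2 against 2 tumors cannot reach a p below 0.333, and the groups overlapped for all shares but that of Hbb-bt in PTX_IP (14.9 and 13.2%, against 9.35 and 13.1% in CONTROL_IP).

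**Figure D3:**
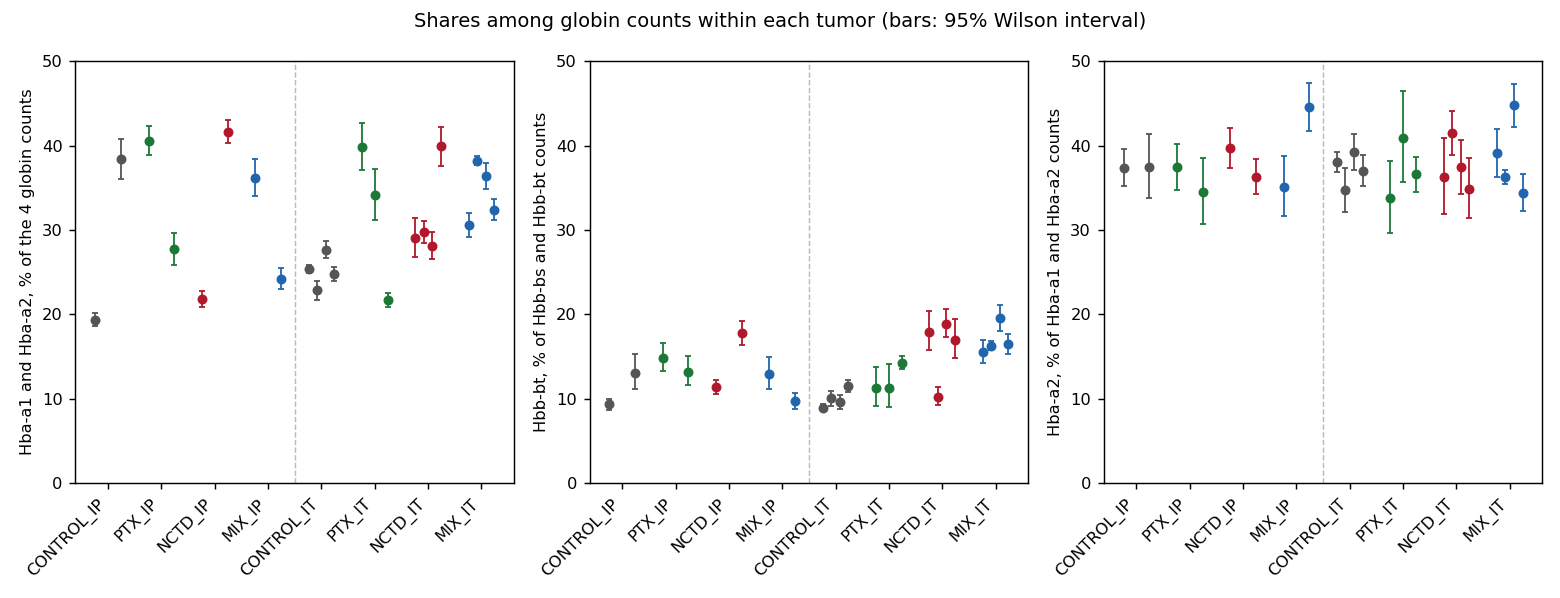
Shares among globin counts in each tumor, in percent: alpha genes among the 4 globin genes (left), Hbb-bt among the beta genes (middle) and Hba-a2 among the alpha genes (right). Points are tumors, vertical bars are 95% Wilson intervals for counting error, and columns are groups. The 4 CONTROL_IT tumors lie below the 4 MIX_IT tumors in the left and middle panels, and the right panel shows no such separation.

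The comparison of NCTD_IT with CONTROL_IT addressed the effect of norcantharidin alone given into the tumor. The fitted levels of all 4 globin genes were below those of the controls, and none passed the adjusted threshold. The log2 fold change was -2.23 for Hbb-bs (SE 0.83, 95% interval -3.98 to -0.49), -1.79 for Hba-a1 (SE 0.75), -1.74 for Hba-a2 (SE 0.75) and -1.55 for Hbb-bt (SE 0.80). The adjusted p (edgeR quasi-likelihood, Benjamini-Hochberg over 12480 genes) was 0.136 for Hbb-bs, 0.178 for Hba-a1, 0.191 for Hba-a2 and 0.271 for Hbb-bt. Thus 0 of the 4 genes tested passed, where 1.37% of all genes did. This background of 171 genes itself depended on single tumors: it was 0 without CONTROL_IT 11, CONTROL_IT 12 or NCTD_IT 18, 1 without CONTROL_IT 9 or NCTD_IT 17 and 71 without NCTD_IT 19. It was 0 with Xist as a covariate and 946 genes (8.4%) when NCTD_IT and CONTROL_IT were fitted alone. At an unadjusted p below 0.05, 3 of 4 were lower (Hbb-bs 0.0153, Hba-a1 0.0292, Hba-a2 0.0333), where 10% of all genes were. Because the 4 genes moved together across tumors (r of 0.936 to 0.989), counts out of 4 here and below are not of independent genes. Groups did not overlap for 1 of 4 genes, Hbb-bs, against 9.82% of all genes in this direction. The median log2 fold change was -1.77 over the 4 genes and 0.03 over all genes tested.

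DESeq2, run on the NCTD_IT and CONTROL_IT tumors alone, called 1 of 4, Hbb-bs. Its log2 fold change was -2.23 at an adjusted p of 0.039, where DESeq2 called 10.6% of the genes it tested. Hba-a1 had an adjusted p of 0.073, Hba-a2 of 0.119 and Hbb-bt of 0.134 in that test. Without CONTROL_IT 9 the edgeR log2 fold change was -1.56 for Hbb-bs, -1.14 for Hba-a1 and -1.06 for Hba-a2. Xist was 5.13 to 13.4 CPM in NCTD_IT and 0 to 0.572 CPM in CONTROL_IT, and its part in the difference cannot be told apart. With log2 CPM of Xist as a covariate the log2 fold change of Hbb-bs was 1.16 with an adjusted p of 0.911.

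For pentoxifylline alone given into the tumor, PTX_IT was compared with CONTROL_IT. The log2 fold change was -1.73 for Hbb-bs (SE 0.90), -1.67 for Hba-a1 (SE 0.83), -1.73 for Hba-a2 (SE 0.83) and -1.16 for Hbb-bt (SE 0.87), with adjusted p of 0.79 to 0.833. With edgeR 0 of 4 genes passed the adjusted threshold, where 0% of all genes did, and 0 of 4 had an unadjusted p below 0.05, where 6.35% of all genes did. With DESeq2 0 of 4 were called, where 0.0811% of genes were. Without PTX_IT 16 the log2 fold change was -3.65 for Hbb-bs, -3.41 for Hbb-bt, -2.85 for Hba-a2 and -2.80 for Hba-a1. Without CONTROL_IT 9 it was -1.07 for Hbb-bs, -1.07 for Hba-a2 and -1.03 for Hba-a1. Xist was 1.29 CPM in PTX_IT 16 and 9.25 and 11.4 CPM in the other two tumors. PTX_IT 16 also had a leukocyte marker sum of 186 CPM, against 1140 and 1022 CPM in PTX_IT 13 and 15. The part of these differences in the globin levels was not tested.

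For the combination, the log2 fold change was -1.10 for Hbb-bs (SE 0.80, 95% interval -2.78 to 0.59), -0.21 for Hba-a1 (SE 0.73), -0.23 for Hba-a2 (SE 0.72) and -0.21 for Hbb-bt (SE 0.78). The adjusted edgeR p ranged from 0.595 to 0.933, 0 of 4 genes passed, where 0% of all genes did, and 0 of 4 had an unadjusted p below 0.05, where 13% of all genes did. DESeq2 called 0 of 4, where it called 2.12% of the genes it tested. The values depended on MIX_IT 22 and CONTROL_IT 9. Without MIX_IT 22 the log2 fold change was -2.16 for Hbb-bs, -1.53 for Hba-a1, -1.40 for Hba-a2 and -1.21 for Hbb-bt, and without CONTROL_IT 9 it was -0.42 for Hbb-bs, 0.45 for Hba-a1 and 0.45 for Hba-a2. The median over the 4 genes was -0.22, beside 0.01 over all genes.

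**Figure D4:**
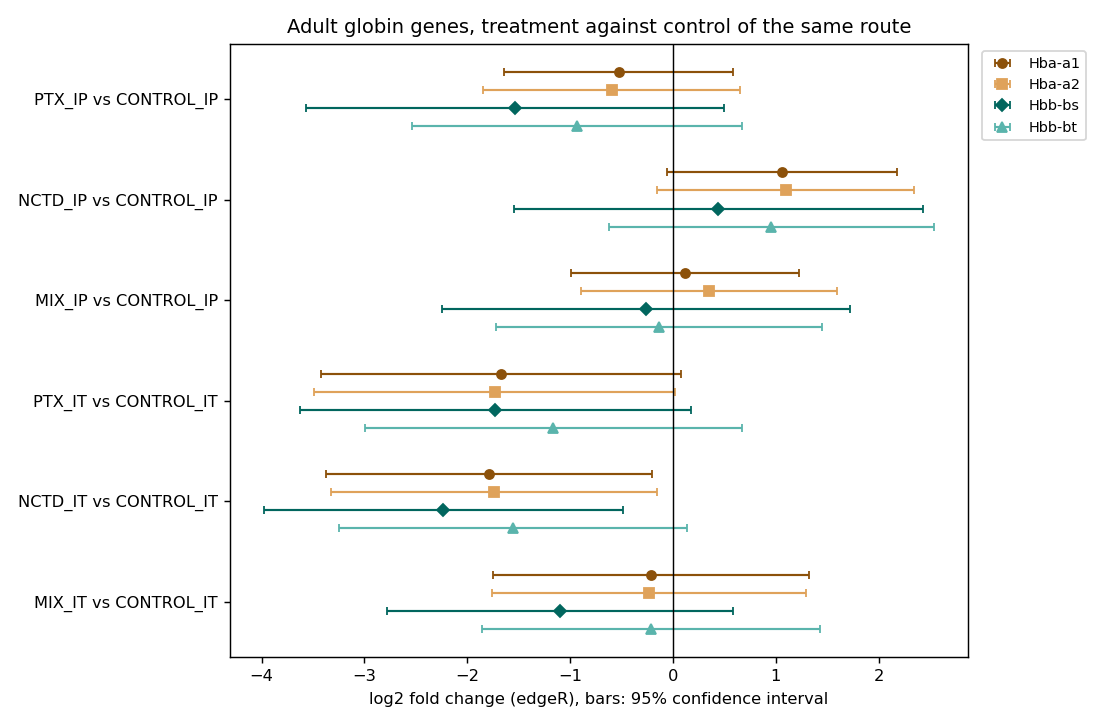
Log2 fold change of the 4 globin genes in each treated group against the control of its route (edgeR), with 1 row per comparison and 1 symbol per gene. Horizontal bars are 95% confidence intervals and the vertical line marks no difference. The intervals of Hbb-bs, Hba-a1 and Hba-a2 in NCTD_IT lie wholly below 0, and all other intervals cross it.

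For norcantharidin by the intraperitoneal route, the fitted levels in NCTD_IP were above those in CONTROL_IP. The log2 fold change was 1.06 for Hba-a1 (SE 0.50, 95% interval -0.05 to 2.18), 1.10 for Hba-a2 (SE 0.55), 0.96 for Hbb-bt (SE 0.70) and 0.44 for Hbb-bs (SE 0.88). With edgeR 0 of 4 genes passed the adjusted threshold (adjusted p 0.999 for each), where 0% of all genes did, and 0 of 4 had an unadjusted p below 0.05, where 3.59% of all genes did. With DESeq2 0 of 4 were called, where 0.0419% of genes were. Groups did not overlap for 2 of 4 genes, Hba-a1 and Hba-a2, against 15.9% of all genes in this direction. The platelet gene Pf4, which tumor macrophages also express, was 71.7 and 97.4 CPM in NCTD_IP and 28.7 and 60.9 CPM in CONTROL_IP. Its part in the globin values was not tested.

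In PTX_IP the log2 fold change was -1.53 for Hbb-bs (SE 0.90), -0.93 for Hbb-bt (SE 0.71), -0.60 for Hba-a2 (SE 0.56) and -0.53 for Hba-a1 (SE 0.50). In MIX_IP it was 0.35 for Hba-a2 (SE 0.55), 0.12 for Hba-a1 (SE 0.49), -0.13 for Hbb-bt (SE 0.71) and -0.26 for Hbb-bs (SE 0.88). With edgeR 0 of 4 genes passed in either comparison, where 0% of all genes did, and 0 of 4 had an unadjusted p below 0.05, where 5.3% of all genes did in PTX_IP and 2.94% in MIX_IP. DESeq2 called 0 of 4 in both, where it called 0.0186% of genes in PTX_IP and 0.0522% in MIX_IP. These values depended on which CONTROL_IP tumor was used. Without CONTROL_IP 1 the log2 fold change of Hbb-bs was 2.93 in NCTD_IP, 0.95 in PTX_IP and 2.22 in MIX_IP. Without CONTROL_IP 2 it was -0.42 in NCTD_IP, -2.40 in PTX_IP and -1.13 in MIX_IP. Single treated tumors also changed the sign for Hbb-bs: it was -0.36 without NCTD_IP 5 and 0.36 without MIX_IP 7, and it was -1.37 without MIX_IP 8. Xist was 8.29 CPM in CONTROL_IP 2 and 0 in the other IP tumors.

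The response to norcantharidin was compared between routes by its interaction. The change by IT minus the change by IP was -2.86 for Hba-a1 (SE 1.22), -2.84 for Hba-a2 (SE 1.24), -2.68 for Hbb-bs (SE 1.44) and -2.51 for Hbb-bt (SE 1.36) on the log2 scale. The adjusted edgeR p over 13395 genes was 0.423 to 0.512, so 0 of 4 passed, where 0% of all genes did. At an unadjusted p below 0.05, 2 of 4 were lower (Hba-a1 0.0293, Hba-a2 0.0322), where 5.34% of all genes were. DESeq2 called 0 of 4, where it called 1.59%. Without CONTROL_IP 1 the interaction of Hba-a1 was -4.12 and that of Hbb-bs -5.17. The interaction of Hbb-bs was -1.83 without CONTROL_IP 2, -1.87 without NCTD_IP 5 and -2.01 without CONTROL_IT 9. For pentoxifylline the interaction ranged from -1.16 for Hba-a1 to -0.21 for Hbb-bs, and for the combination from -0.82 for Hbb-bs to -0.06 for Hbb-bt. In both, 0 of 4 genes passed with edgeR, where 0% of all genes did, and 0 of 4 had an unadjusted p below 0.05, where 5.23% of all genes did for pentoxifylline and 7.44% for the combination. In DESeq2 both interactions gave 0 of 4 called, where it called 0.00344% of genes for pentoxifylline and 0.113% for the combination.

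Averaged over the 4 arms, the IT tumors were compared with the IP tumors to describe the level by route. The log2 difference was 0.90 for Hbb-bt (SE 0.50), 0.80 for Hba-a1 (SE 0.44), 0.76 for Hba-a2 (SE 0.45) and 0.66 for Hbb-bs (SE 0.52). The adjusted edgeR p ranged from 0.422 to 0.613, and 0 of 4 genes passed, where 0.739% of all genes did. DESeq2 called 0 of 4, where it called 5.37%, and 0 of 4 had an unadjusted edgeR p below 0.05, where 14.4% of all genes did. Without CONTROL_IP 1 the difference of Hbb-bs was 1.28. Route, vehicle and any batch that follows the route cannot be told apart in it.

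The other genes of heme and red cell biology were read from fixed lists. Each gene of a list that passed in NCTD_IT lost its call when some single tumors were left out and when Xist was a covariate. Of the 13 heme synthesis genes tested in NCTD_IT, 1 rose and 0 fell (1.37% of all genes passed), with a median log2 fold change of 0.08. The gene that rose was Slc25a37 (mitoferrin), the mitochondrial iron importer of red cell precursors and other cells. It was 20.8, 17.8, 15.2 and 17.2 CPM in CONTROL_IT and 39.0, 69.5, 53.7 and 37.2 CPM in NCTD_IT (log2 fold change 1.52, SE 0.34, adjusted p = 0.0414). With 1 tumor left out at a time the call was kept in 1 of 8 fits, with a log2 fold change of 1.32 to 1.64 and an adjusted p of 0.0444 to 0.145. In the other 5 comparisons with control 0 of the heme synthesis genes passed. In MIX_IT the log2 fold change of Slc25a37 was 1.04 (SE 0.34, adjusted p = 0.208). Tmem14c, a heme precursor transporter, was the most abundant gene of this list at a mean of 297 CPM, and Alas1 averaged 23.2 CPM.

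Of the red cell membrane and cytoplasm genes, 15 were tested by the IT route and 14 by the IP route, and 0 passed in any comparison. Bnip3l, a mitophagy receptor that clears mitochondria from reticulocytes and is expressed in many tissues, averaged 415 CPM. Of the erythroid transcription factors 0 passed among 6 (IT) and 7 (IP) tested. The largest of these by level, Zbtb7a, which silences fetal globin, averaged 123 CPM.

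The genes of heme breakdown and hemoglobin clearance gave 1 that rose and 0 that fell among 14 tested in NCTD_IT (1.37% of all genes passed), and 0 of 14 in the other comparisons. The gene that rose was Ftl1, the ferritin light chain that stores iron, at 33.0, 1932, 337 and 4644 CPM in NCTD_IT and 65.7, 46.7, 28.7 and 59.8 CPM in CONTROL_IT (log2 fold change 5.14, SE 1.00, adjusted p = 0.03). The groups overlapped, since NCTD_IT 17 lay within the controls. The call was kept in 4 of 8 fits with 1 tumor left out (adjusted p 0.0145 to 0.117), and the log2 fold change was 3.98 without NCTD_IT 20. Ftl1 has near-identical processed copies in the genome, so its count is uncertain. Fth1, the ferritin heavy chain, averaged 2540 ± 345 CPM in CONTROL_IT and 1196 ± 302 CPM in NCTD_IT (SD, n = 4 each), at an adjusted p of 0.055.

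Markers of other cells of blood and vessels were read in the same way. Of 13 platelet genes 1, Pf4, passed the filter, and Gp9 and Tubb1 had 0 counts in every tumor. The summed platelet level was 38.5 to 69.1 CPM in CONTROL_IT and 48.0 to 92.0 CPM in NCTD_IT. Endothelial genes gave 1 that rose and 0 that fell of 17 tested in NCTD_IT (1.37% of all genes passed), with a median log2 fold change of 1.00, where that of the globin genes was -1.77. Emcn, a sialomucin of capillaries and veins, was 8.21, 7.90, 7.61 and 6.01 CPM in CONTROL_IT and 22.4, 20.5, 15.4 and 12.8 CPM in NCTD_IT (log2 fold change 1.29, SE 0.29, adjusted p = 0.0414). This call was kept in 1 of 8 fits with 1 tumor left out (adjusted p 0.0386 to 0.145). The endothelial sum was 134 to 204 CPM in CONTROL_IT, 165 to 347 CPM in NCTD_IT and 185 to 399 CPM in MIX_IT.

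Neutrophil markers gave 2 that rose and 0 that fell of 4 tested in NCTD_IT (1.37% of all genes passed). S100a8, a calcium-binding protein of neutrophils, was 1.32 to 2.05 CPM in CONTROL_IT and 8.60, 286, 15.7 and 4.19 CPM in NCTD_IT (log2 fold change 5.6, SE 1.16, adjusted p = 0.0363). Its partner S100a9 was 2.31, 1.76, 3.55 and 0.286 CPM in CONTROL_IT and 10.7, 736, 25.3 and 4.19 CPM in NCTD_IT (log2 fold change 6.63, SE 1.40, adjusted p = 0.0363). NCTD_IT 18 was the highest for both, and without it the log2 fold change was 2.53 for S100a8 (adjusted p = 0.105) and 2.75 for S100a9 (adjusted p = 0.126). Each call was kept in 2 of 8 fits with 1 tumor left out. Of 15 leukocyte markers 0 passed in NCTD_IT, with a median log2 fold change of 1.13. Of 10 melanocytic markers 0 rose and 1 fell (1.37% of all genes passed), the pigment cell factor Mitf, which fell by 0.86 on the log2 scale (SE 0.18, adjusted p = 0.0363). This call was kept in 2 of 8 fits with 1 tumor left out (adjusted p 0.029 to 0.145). Of 2 markers of skin, muscle and fat 0 passed. In the other 5 comparisons 0 genes of these 6 lists passed with edgeR, which does not make these changes particular to NCTD_IT. In MIX_IT the log2 fold change was -1.22 for Mitf (SE 0.18, adjusted p = 0.0603) and 1.4 for Emcn (SE 0.29, adjusted p = 0.121). It was 1.57 for S100a8 (SE 1.17, adjusted p = 0.607) and 1.96 for S100a9 (SE 1.37, adjusted p = 0.579). The part of these cell types in the globin values was not tested.

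Across all 23 tumors the correlation with Hbb-bs passed the adjusted threshold for 0 of 11 lists. The summed level (log2 of CPM plus 1) was set against log2 CPM of Hbb-bs, after the values had been seen. Pearson's r ranged from -0.56 for the erythroid transcription factors to 0.30 for the platelet genes. The sum of the erythroid transcription factors had a median of 176.8 CPM and was mostly Zbtb7a, at a mean of 122.5 CPM. Klf1, at a mean of 0.873 CPM, and Gata1, at 0.0292 CPM, added little to it. For the erythroid transcription factors rho was -0.54 (permutation p = 0.00553 for r and 0.00911 for rho, adjusted 0.0608 and 0.1). Without the 2 tumors farthest in Hbb-bs r was -0.61, within the IP tumors -0.64 and within the IT tumors -0.54. The leukocyte sum had r of -0.47 and rho of -0.44 (permutation p = 0.0222 and 0.0389, adjusted 0.122 and 0.107), with r of -0.41 without the 2 farthest tumors, -0.08 within the IP tumors and -0.57 within the IT tumors. The sum of skin, muscle and fat markers had r of -0.42 and rho of -0.46 (permutation p = 0.0471 and 0.028, adjusted 0.173 and 0.105), with r of -0.42 without the 2 farthest tumors, -0.56 within the IP tumors and -0.33 within the IT tumors. The endothelial sum had r of -0.27 and rho of -0.35 (permutation p = 0.206 and 0.101, adjusted 0.378 and 0.168), with r of -0.17 without the 2 farthest tumors, 0.23 within the IP tumors and -0.49 within the IT tumors.

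The genes most like Hbb-bs outside the globin family were not red cell genes. Among 13391 genes ranked by Pearson's r of log2 CPM over the 23 tumors, Mrpl34, a protein of the mitochondrial ribosome, stood first at 0.78, followed by Nmral1 at 0.76 and Bmi1, a Polycomb protein, at 0.73. Ddit4, an inhibitor of mTOR induced by stress and hypoxia, had r of 0.73 and Coq6, a coenzyme Q hydroxylase, also had 0.73. The next were 4933434E20Rik (0.73), the mitochondrial channel Vdac1 (0.72), the sterol enzyme Lss (0.72) and the creatine enzyme Gamt (0.72). Grk6, a kinase that phosphorylates G protein-coupled receptors, followed at 0.71. These values lie below that of every globin pair, they are the largest of many and the points share library depth, and no test was made of them. Within the IP and the IT tumors r was 0.81 and 0.77 for Mrpl34 and 0.37 and 0.87 for Bmi1.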

How the data were processed

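RNA from 23 tumors was sequenced by the authors with a 3′ mRNA kit (Collibri), and the deposited values are raw gene counts against GRCm39, for which the submitters' processing notes name Trimmomatic, STAR 2.7.11b and FastQC. Strand, reads that fit several places and molecular identifiers are not given in the sources used here. Total counts were 2861578 to 6702374 per tumor, so a floor of 3 counts was 0.448 to 1.03 CPM. Counts were tested with the quasi-likelihood test of edgeR 4.0.16 (R 4.3.3, limma 3.58.1) with TMM scaling and filterByExpr (minimum count 10, minimum total 15). The 4 groups of a route shared a fit, all 23 tumors were fitted for interactions and route, and p-values were adjusted by Benjamini-Hochberg over all genes tested at 0.05. Levels are CPM with TMM scaling, and log2 CPM used a prior count of 2. Correlations and shares used two-sided permutation tests (Python 3.11.15, scipy 1.17.1), exact for fewer than 10 tumors and with 100000 resamples otherwise. Scripts were tested on simulated data.

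Groups came from the labels. The labels do not say more of the source of each tumor than its mouse host, so p-values measure the spread between these tumors. The members, lists and tests were chosen with earlier results of these data known. From each list the text could name the 3 genes of highest mean CPM and the 3 of smallest unadjusted p in a comparison with control, and the 10 genes most correlated with Hbb-bs were named. Alas1 and genes at 0 counts were named after their values were seen. Planned pairs with Alas2 (3 counts) could not be computed. Alternatives were DESeq2 1.42.0, its size factors, no filter and TMM without the 5 genes. Others were fits on fewer or all groups, Xist as a covariate, and each tumor left out. DESeq2 was run on the 2 groups compared, and on all 23 tumors for interactions and route. Wilson intervals for shares, the leave-outs of shares and the alternatives for list genes called in NCTD_IT were added after seeing the data. Results that need items withheld from this text are not reported here.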

Additional observations from a re-analysis of the deposited data

Results flagged for a closer look

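In groups of 4 tumors, the highest or lowest value was compared with its nearest neighbour relative to the range of the group (Dixon's ratio, critical value at 95%). Of 24 such sets (8 measures in 3 groups) 6 passed, and the 8 measures of a tumor are not independent. For normally distributed values chance passes about 1 in 20. That rate need not hold here, since CPM and shares were used without logs. MIX_IT 22 stood apart from the other MIX_IT tumors in Hba-a1, at 1257 CPM with 192 CPM next, and in Hba-a2, at 714.2 CPM with 154.8 CPM next. It stood apart in Hbb-bs as well, at 2669 CPM with 509.4 CPM next, and in Hbb-bt, at 519.5 CPM with 118.3 CPM next. The 4 genes took 0.5029% of its library, with 0.09582% next. NCTD_IT 20 stood apart in the alpha share of globin counts, at 39.89% with 29.72% next in NCTD_IT. No difference between routes in the response of a globin gene passed the adjusted threshold with edgeR or DESeq2.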

How the results depend on the processing

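With each tumor left out in turn, with DESeq2 size factors and with TMM without the 5 genes, 0 members passed the adjusted threshold in the 6 comparisons with control, the 3 interactions and the comparison of routes. Fits on 2 groups or on all 23 tumors and fits with Xist as a covariate were run for the 6 comparisons with control, and there too 0 members passed. DESeq2 called 1 in NCTD_IT. With no filter, edgeR called 3 in NCTD_IP (0.3% of all genes), 1 in PTX_IP (0.3%), 4 in NCTD_IT (4.43%), 4 in PTX_IT (0.826%), 1 in MIX_IT (1.35%), 4 in the norcantharidin interaction (0.974%) and 4 between routes (1.56%). In these fits the median prior degrees of freedom were infinite, so that the spread of each gene gave way to the shared one.

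With Xist as a covariate the sign of the log2 fold change reversed for Hbb-bs in NCTD_IP (-0.423), for Hba-a1 (-0.545) and Hba-a2 (-0.314) in MIX_IP, and for Hba-a1 (0.506), Hba-a2 (0.497), Hbb-bs (1.16) and Hbb-bt (2.18) in NCTD_IT. It also reversed for Hbb-bs (0.278) and Hbb-bt (1.05) in PTX_IT. Among the IP tumors Xist was above 0 only in CONTROL_IP 2, so there the covariate takes that tumor out of the comparison. Without CONTROL_IP 2 the log2 fold change of Hbb-bs in NCTD_IP was -0.424, and that of Hba-a1 in MIX_IP was -0.546. By the IT route Xist was at least 1.29 CPM in PTX_IT and NCTD_IT and at most 0.572 CPM in CONTROL_IT. The fit therefore cannot separate Xist from the drug in these comparisons.

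With single tumors left out the log2 fold change ranged in PTX_IP from -1.19 to 0.723 for Hba-a1, -1.26 to 0.647 for Hba-a2, -2.4 to 0.951 for Hbb-bs and -1.75 to 1.05 for Hbb-bt. In MIX_IP it ranged from -0.546 to 1.37 for Hba-a1, -0.357 to 1.6 for Hba-a2, -1.37 to 2.22 for Hbb-bs and -0.948 to 1.85 for Hbb-bt, and in NCTD_IP from -0.424 to 2.93 for Hbb-bs. In MIX_IT it ranged from -1.53 to 0.445 for Hba-a1, -1.4 to 0.447 for Hba-a2 and -1.21 to 0.322 for Hbb-bt. The pentoxifylline interaction ranged from -2.68 to 0.674 for Hbb-bs and -2.47 to 0.587 for Hbb-bt, and that of the combination from -1.65 to 0.34 for Hba-a1, -1.82 to 0.151 for Hba-a2, -3.32 to 0.295 for Hbb-bs and -2.06 to 0.743 for Hbb-bt. In NCTD_IT the sign held for all 4 genes, from -2.1 to -1.14 for Hba-a1, -2.18 to -1.06 for Hba-a2, -2.7 to -1.56 for Hbb-bs and -1.99 to -1.02 for Hbb-bt. Where 1 IP tumor remained in a group, it was assumed to vary like the other groups.

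No paired analysis was possible because no replicate number occurs in more than 1 group. With 2 tumors in an IP group, and a spread between tumors of more than 1 on the log2 scale, the intervals of all IP comparisons cross 0, which does not show that the groups were alike.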
